A study of Mus musculus with 19 samples.

Results

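The 9 genes of nucleic acid sensing described here were 9 of the 16842 genes listed in the count files of 19 mouse bone marrow RNA libraries. They were chosen by symbol: Ddx58 and Ifih1, which encode the cytosolic RNA helicases RIG-I and MDA5; Mavs and Tmem173, which encode the adaptors MAVS and STING; Zbp1 and Adar, whose proteins bind Z-form nucleic acid; and Tlr3, Tlr7 and Tlr9, which encode endosomal Toll-like receptors. All 9 were listed and tested in every comparison. The study asked how mutant ASXL1 proteins act in clonal hematopoiesis and chronic myelomonocytic leukemia, and its labels divide the mice only into MT and WT. The MT allele, its promoter or Cre, the strain and the sex were not given in the sources used here. Cd11b+ myeloid cells came from mice of 4 months (3 MT, 4 WT libraries) and of 18 months (3 MT, 3 WT), and LK cells, which are lineage-negative and c-Kit+ and so rich in progenitors, from mice of 18 months (3 MT, 3 WT). No treatment was named for any of the 6 groups. The labels do not say whether replicates came from separate animals, so p-values measure only the spread between these libraries.

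RIG-I and MDA5 detect double-stranded RNA in the cytosol and pass the signal to MAVS on mitochondria, while STING, on the endoplasmic reticulum, is switched on by the cyclic dinucleotide that cGAS makes when it meets cytosolic DNA. TLR3 recognises double-stranded RNA, TLR7 single-stranded RNA and TLR9 unmethylated CpG DNA in endosomes. ADAR edits adenosine to inosine in double-stranded RNA, which keeps endogenous RNA from activating MDA5, and ZBP1 can start necroptosis once it binds Z-form RNA or DNA. Signals from these receptors can end in type I interferon, and transcripts of transposable elements are among the endogenous nucleic acids they can meet.

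The libraries held 26251822 to 68260809 gene counts. Serinc3, which lies 10.3 Mb from Asxl1 on chromosome 2, was lower in every MT than in every WT library of each set, with a log2 fold change of -0.46 in young Cd11b cells, -0.51 in old Cd11b cells and -0.99 in LK cells. Levels are given in CPM, read counts scaled to a common library size with edgeR's TMM factors. Asxl1 itself, at 92.5 to 97.4 CPM in LK MT and 106 to 117 CPM in LK WT libraries, does not check the labels, since no allele is named. Itgam, which encodes Cd11b, stood at 1481 to 3465 CPM in Cd11b libraries and 45.3 to 85.7 CPM in LK libraries. In each 18-month group replicates 2 and 3 lay close together. Their distance, a chi-square of the counts divided by its degrees of freedom, was 2.97 to 6.48, and with replicate 1 it was 13.9 to 44.9 (8 pairs). In the young set MT replicate 3 and WT replicate 4 had Ddx3y at 104 and 109 CPM and the other 5 libraries had Xist at 1691 to 1981 CPM, whereas every 18-month library had Ddx3y RNA. The young libraries also held far more of the small nuclear RNA 7SK, 6124 to 11880 CPM (without TMM factors) against 3.33 to 5.37 CPM in the 18-month libraries. The labels name no difference in library preparation between the ages. Such a difference is inferred here from 7SK only, and age cannot be told apart from it.

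The 9 genes covered a wide range of levels, compared here as CPM per kilobase of the union of a gene's exons. In WT Cd11b cells of 18 months Adar was highest at 17.5 ± 1.75 CPM per kb (SD, n = 3), Ddx58 followed at 15.3 ± 0.354, Tlr7 at 12.4 ± 0.744 and Tmem173 at 10.3 ± 0.852. Zbp1 lay at 7.21, Ifih1 at 5.12, Tlr9 at 4.89 and Mavs at 3.39 CPM per kb, and Tlr3 was last at 0.242. Ifih1 and Tlr9 overlapped between libraries, and all other neighbours in that order were separate. In WT LK cells Tmem173 led at 14.6 CPM per kb, Mavs came next at 8.97 and Adar at 8.54, then Ifih1 at 3.35 and Ddx58 at 1.77. Zbp1, Tlr9, Tlr7 and Tlr3 lay under 1, at 0.68, 0.643, 0.498 and 0.267 CPM per kb, with Zbp1 and Tlr9 overlapping. Both adaptors thus stood above both helicases and all 3 Toll-like receptors in the progenitor fraction.

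**Figure D1:**
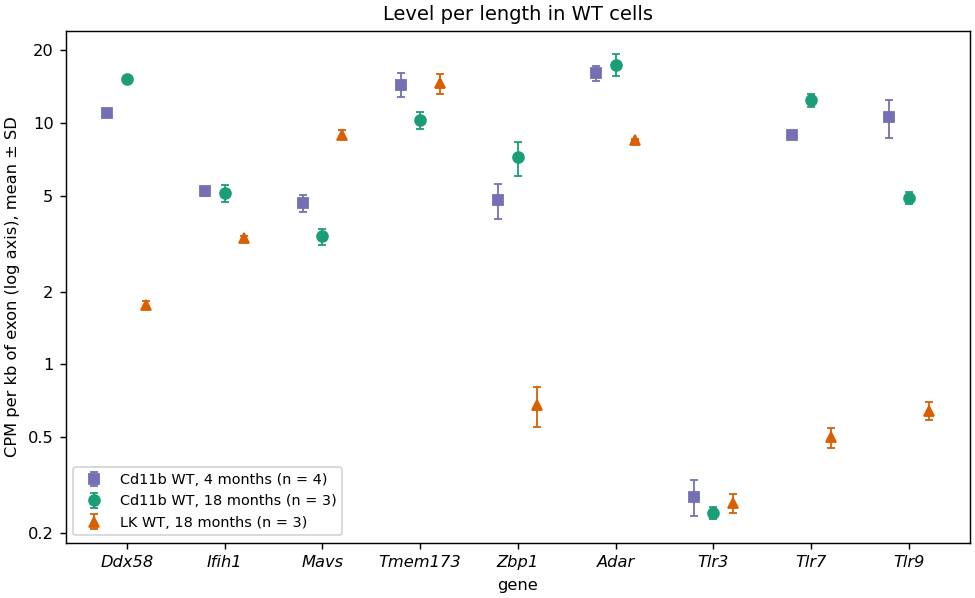
Level of each gene in WT cells as CPM per kilobase of exon on a log axis. Points are means and bars are SD over 4 young Cd11b, 3 old Cd11b and 3 LK libraries. Mavs and Tmem173 sat higher in LK than in old Cd11b cells, Tlr3 lay between 0.242 and 0.283 in all, and the other 6 genes were lower in LK cells.

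Between WT LK and WT Cd11b cells of 18 months, 8 of the 9 genes were called at an adjusted p under 0.05 by edgeR's quasi-likelihood test (2 higher and 6 lower in LK cells), beside 86.8% of the 13710 genes tested (45.1% higher and 41.7% lower). The median log2 fold change of the 9 was -1.13, and that of all genes was 0.08. The comparison is between sorted populations, and in bulk RNA fewer cells of a type and less RNA per cell cannot be told apart.

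The cytosolic RNA sensors were lower in LK cells, Ddx58 far more than Ifih1. Ddx58 (chromosome 4, 40203773 to 40239828, mm10) had 110.5, 106 and 106 CPM in old WT Cd11b libraries and 12.8, 12.7 and 11.9 CPM in WT LK libraries. The groups were wide apart, with a log2 fold change of -3.21 ± 0.05 (SE), or 9.22-fold lower, and an edgeR adjusted p of 5.44e-10. Ifih1 (chromosome 2, 62595798 to 62646255) had 45.7, 39.2 and 40.5 CPM in Cd11b and 27.6, 27.5 and 26.8 CPM in LK libraries. Its groups did not overlap either, but the difference was 1.64-fold (log2 fold change -0.71 ± 0.07, edgeR adjusted p = 1.25e-05).

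The adaptors went the other way. Mavs (chromosome 2, 131234063 to 131248025), the mitochondrial platform on which both helicases signal, had 11.1, 10.6 and 12.3 CPM in old WT Cd11b libraries and 29, 31.4 and 29.6 CPM in WT LK libraries. Each LK library was above each Cd11b library, 2.47-fold on average (log2 fold change 1.30 ± 0.08, edgeR adjusted p = 5.32e-07). Tmem173 (chromosome 18, 35733679 to 35740554) had 30.9, 26.9 and 26.9 CPM in Cd11b and 44.4, 38.5 and 37.2 CPM in LK libraries. It was 1.32-fold higher in LK cells without overlap (log2 fold change 0.40 ± 0.08, edgeR adjusted p = 0.00143).

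Both genes for proteins with Z-form binding domains were lower in LK cells. Zbp1 (chromosome 2, 173206612 to 173218923) had 30.2, 22.9 and 23.3 CPM in old WT Cd11b libraries and 2.9, 2.03 and 2.27 CPM in WT LK libraries. This 11.3-fold difference (log2 fold change -3.50 ± 0.16, edgeR adjusted p = 1.03e-07) was the second largest of the 9 genes. Adar (chromosome 3, 89715022 to 89753446) had 158, 131 and 137 CPM in Cd11b and 69.1, 68.9 and 70 CPM in LK libraries, a 2.19-fold difference (log2 fold change -1.13 ± 0.08, edgeR adjusted p = 1.1e-06).

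Of the endosomal receptors, Tlr7 and Tlr9 were lower in LK cells and Tlr3 was near 1 CPM in both populations. Tlr7 (chromosome X, 167304929 to 167330558) had 54.2, 48.6 and 49.3 CPM in old WT Cd11b libraries and 2.25, 1.92 and 1.93 CPM in WT LK libraries, the largest difference of the 9 at 26.6-fold (log2 fold change -4.73 ± 0.08, edgeR adjusted p = 7.57e-10). Tlr9 (chromosome 9, 106222598 to 106226883) had 18.1, 16.3 and 16.6 CPM in Cd11b and 2.06, 2.44 and 2.2 CPM in LK libraries, or 8.11-fold lower (log2 fold change -3.02 ± 0.11, edgeR adjusted p = 1.91e-08). Tlr3 (chromosome 8, 45395665 to 45411080) rested on 42 to 89 counts per library and had 1.2, 1.24 and 1.34 CPM in Cd11b and 1.53, 1.29 and 1.34 CPM in LK libraries. Its groups overlapped, with a log2 fold change of 0.04 ± 0.17 (edgeR adjusted p = 0.84). Each of the 8 calls held in all 14 alternative fits of this comparison.

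**Figure D2:**
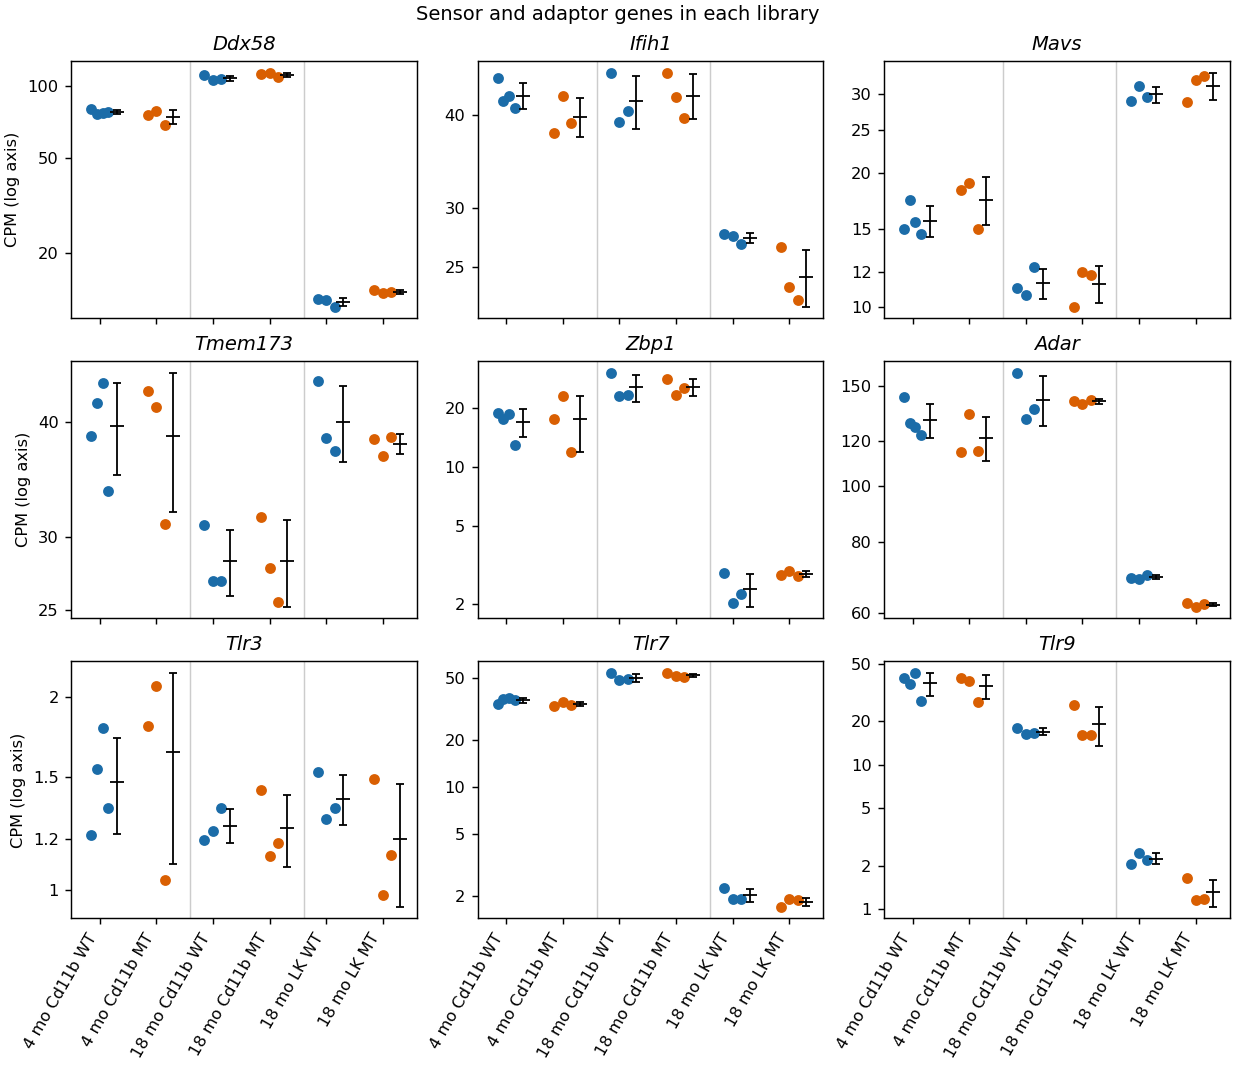
CPM of the 9 genes in each library on log axes of different span, by group (4 or 18 months, WT blue, MT orange). Points are libraries in replicate order and black bars are the mean ± SD. Tlr7 fell from 48.6 to 54.2 CPM in old Cd11b to 1.71 to 2.25 CPM in LK libraries, and Tlr9 was lower in each LK MT than in each LK WT library.

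Other genes of the pathway were compared between the same WT cells. Of 94 genes in 6 lists (other sensors, adaptors and kinases, transcription factors, genes that limit endogenous nucleic acid, interferon-induced genes, interferons and their receptors), 86 were tested, and 68 were called lower and 16 higher in LK cells, beside 41.7% lower and 45.1% higher over all genes. Their median log2 fold change was -1.11, and that of all genes was 0.08. All 19 other sensors tested were called, 15 of them lower. Tlr13, a mouse receptor for bacterial ribosomal RNA, had 3.21 ± 0.695 CPM (SD, n = 3) in WT LK and 287 ± 18.8 CPM (n = 3) in old WT Cd11b libraries. Tlr8 had 1.49 against 66.6 CPM and Ddx60, a helicase linked to RIG-I signaling, 3.26 against 80.6 CPM. Myd88, the adaptor of Tlr7 and Tlr9, had 45.4 against 219.7 CPM (log2 fold change -2.37 ± 0.07, edgeR adjusted p = 4.93e-09). Samhd1, which breaks down deoxynucleotides, had 98 against 981 CPM. The other way, Rnaseh2a, a subunit of the enzyme that removes ribonucleotides from DNA, had 69.2 CPM in LK and 12.2 CPM in Cd11b cells, and Ttc37, a cofactor of RNA decay, 32.6 against 8.84 CPM.

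With age, WT Cd11b cells differed in 6 of the 9 genes (3 higher and 3 lower at 18 than at 4 months), beside 73.1% of 13719 genes tested (36.1% higher and 36.9% lower), so the share of the 9 was no larger than that of all genes. Ddx58, Tlr7 and Zbp1 were higher in the older cells. Ddx58 had 79.8, 76.4, 77.2 and 77.8 CPM in the 4 young WT libraries, all below the 106 to 110.5 CPM of the old ones (log2 fold change 0.45 ± 0.05, edgeR adjusted p = 1.7e-05). Tlr7 had 34.5, 36.8, 37.6 and 36.3 CPM in the young libraries, again below the old range of 48.6 to 54.2 CPM (0.46 ± 0.06, edgeR adjusted p = 7.36e-05). Zbp1 had 18.7, 17.5, 18.6 and 12.9 CPM in the young libraries, below the old range of 22.9 to 30.2 CPM (0.57 ± 0.14, edgeR adjusted p = 0.00393).

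The 3 genes that were lower in the older cells were both adaptors and Tlr9. Mavs had 15, 17.4, 15.5 and 14.6 CPM in young WT libraries, above the old range of 10.6 to 12.3 CPM, a log2 fold change of -0.48 ± 0.10 (edgeR adjusted p = 0.00103). Tmem173 had 38.7, 41.9, 44.1 and 33.7 CPM in the young libraries, above the old range of 26.9 to 30.9 CPM (-0.51 ± 0.10, edgeR adjusted p = 0.000724). Tlr9 had 39.8, 36.1, 43.2 and 27.7 CPM against 16.3 to 18.1 CPM, 2.19-fold lower at 18 months (-1.13 ± 0.13, edgeR adjusted p = 2.5e-05). Ifih1 (-0.04 ± 0.07), Tlr3 (-0.25 ± 0.21) and Adar (0.10 ± 0.08) overlapped between the ages and were not called. The 6 calls held in all 16 alternative fits. For all 6, young WT replicate 4, which like the 18-month libraries had Ddx3y RNA, lay on the side of the other young libraries. That replicate had the lowest Mavs, Tmem173, Zbp1 and Tlr9 of the young WT group, and MT replicate 3 the lowest of the young MT group. Age, library kind and, for most young libraries, sex-linked expression moved together and cannot be told apart. Cell type markers moved with them in WT Cd11b libraries. The summed CPM of 8 neutrophil markers was 43307 to 55559 in young and 139960 to 171245 in old libraries. Sums of 5 eosinophil, basophil and mast cell markers were 1456 to 1896 and 71.6 to 141, and of 4 primary granule genes 3700 to 6645 and 1504 to 1604. Also lower in old libraries were sums of B cell (120 to 261 and 47.8 to 68.8), plasmacytoid dendritic cell (106 to 170 and 23.3 to 28.3) and T and NK cell markers (78.3 to 116 and 38.7 to 44.8). The same held for stem and progenitor (162 to 223 and 74.2 to 80.8) and conventional dendritic cell markers (38.2 to 45.9 and 22.7 to 25.9). Monocyte and macrophage sums were higher, 2018 to 2303 and 2458 to 2633. Erythroid, megakaryocyte and immediate early sums overlapped. The part of these shifts in the age results of the 9 genes was not tested.

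Of the other genes of the pathway, 53 of 86 were called higher and 15 lower in the older WT Cd11b cells, beside 36.1% and 36.9% of all genes. The median log2 fold change was 0.33 in the lists and -0.02 over all genes. After correction for length and GC the lists had 60 higher and 10 lower and a median of 0.49, but the median of all genes also moved to 0.18 and their calls to 6297 higher and 3978 lower. All 10 transcription factors were called, 9 of them higher, among them Irf3, the factor that STING and MAVS switch on, at 59.2 ± 1.26 CPM (SD, n = 3) in old and 40.8 ± 0.814 CPM (n = 4) in young libraries. Irf8 was the factor that was lower, at 83.1 against 194 CPM. Myd88 was 219.7 against 84.8 CPM, and Nlrx1, which restrains MAVS, 134 against 66.7 CPM. Of the interferon-induced genes 7 were higher and 3 lower. Isg15, a ubiquitin-like protein gene, was higher, at 11.4 against 5.81 CPM, while Mx2 (2.07 against 3.64 CPM) and Bst2 (14.8 against 22 CPM) were lower.

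Between MT and WT, Cd11b cells showed no called change in any of the 9 genes at either age. In young cells 0 of 9 were called, beside 0% of 13755 genes (444 genes, or 3.23%, had an unadjusted p under 0.05, and DESeq2 called 19), and 0 of the 9 had groups that did not overlap, beside 4.44%. The log2 fold changes of the members lay between -0.10 for Adar and 0.16 for Mavs. None of the 9 had an unadjusted p under 0.05. In old cells 0 of 9 were called, beside 0.336% of 13398 genes (2230, or 16.6%, with an unadjusted p under 0.05, and 514 called by DESeq2), and none was separate, beside 22.5%. The members lay between -0.02 for Tlr3 and 0.18 for Tlr9, and no unadjusted p of theirs was under 0.05. The value of Tlr9 rested on MT replicate 1, which had 25.9 CPM where MT replicates 2 and 3 had 16 each. Without that library the log2 fold change was -0.10 (edgeR adjusted p = 0.468). Over 16 alternative fits by edgeR, DESeq2 or voom the adjusted p of Tlr9 ran from 0.468 to 0.975. None of the 9 was called in any of the 18 young and 16 old alternative fits, DESeq2 included. The difference of the MT against WT change between the ages was called for 0 of 9 genes, beside 0.0214% of 14024 genes (1035, or 7.38%, with an unadjusted p under 0.05, and 63 called by DESeq2); none of the 9 was under that unadjusted limit.

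**Figure D3:**
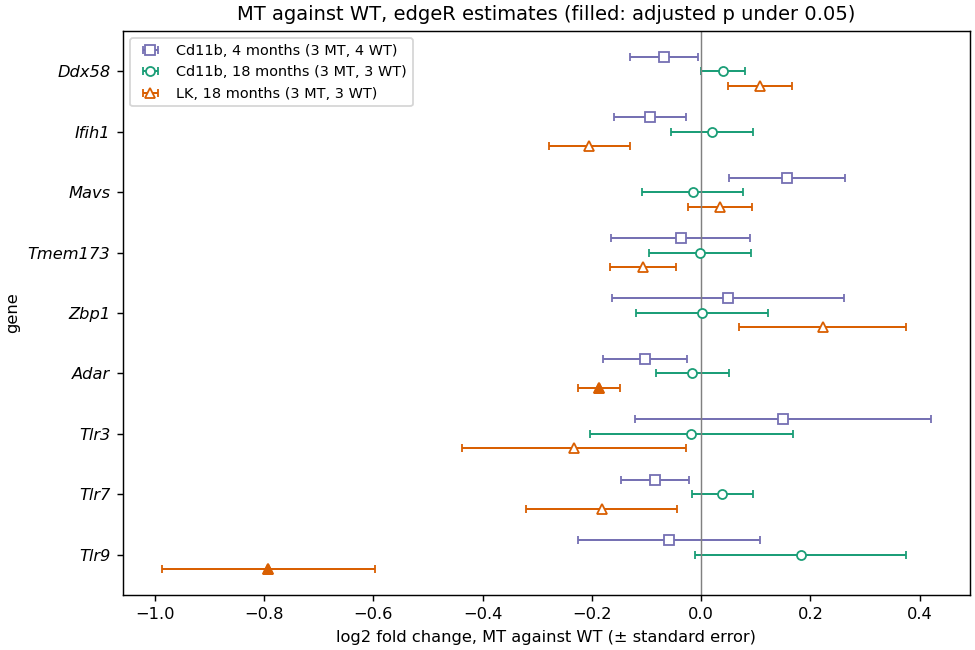
Log2 fold change of MT against WT for the 9 genes in 3 sets of cells, from edgeR, with bars of ± 1 standard error; filled symbols have an adjusted p under 0.05. Tlr9 at -0.79 and Adar at -0.19 in LK cells are the filled ones, and the Cd11b values lie between -0.10 and 0.18.

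In LK cells Tlr9 and Adar were lower in MT, so 2 of 9 genes were called by edgeR (0 higher, 2 lower), beside 29.8% of 14113 genes called, 13.9% higher and 15.9% lower. The share of the 9 was therefore not above that of all genes. The median log2 fold change of the 9 was -0.18, and that of all genes was 0.02. Tlr9 had 1.64, 1.14 and 1.17 CPM in MT and 2.06, 2.44 and 2.2 CPM in WT libraries, from 71 to 98 and 90 to 159 counts. Every MT library was below every WT library, with a log2 fold change of -0.79 ± 0.20, or 1.73-fold (edgeR adjusted p = 0.0201). Adar had 62.5, 61.6 and 62.3 CPM in MT and 69.1, 68.9 and 70 CPM in WT libraries. Its difference was small but the replicates were tight, with a log2 fold change of -0.19 ± 0.04, or 1.14-fold (edgeR adjusted p = 0.0116).

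These LK calls rested on replicates 2 and 3, which were near each other in each group. With them summed to 1 library per group 0 of 9 genes were called, Tlr9 at -0.69 ± 0.27 (edgeR adjusted p = 0.229) and Adar at -0.17 ± 0.06 (0.214), and 3 of all genes were. Tlr9 had an edgeR adjusted p of 0.0872 without MT replicate 2, 0.0848 without MT replicate 3, 0.0896 without WT replicate 2 and 0.0717 without WT replicate 3. For Adar the same 4 fits gave 0.0642, 0.0611, 0.0572 and 0.0562. Without MT replicate 1 or WT replicate 1 both passed the threshold, Tlr9 at an edgeR adjusted p of 0.00597 and 0.0153 and Adar at 0.00915 and 0.00226. Over all 16 alternative fits the adjusted p ran from 0.00015 to 0.229 for Tlr9 and from 0.000142 to 0.214 for Adar. Removing each library's trend with transcript length and GC moved the Adar value to -0.09 ± 0.04 (edgeR adjusted p = 0.0883) and left Tlr9 at -0.86 ± 0.19 (0.0182). The sign of both was the same in all 16 alternative fits.

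Beside Tlr9 and Adar, 3 more genes did not overlap between LK MT and WT, which made 5 of 9 beside 43.2% of all genes. Ifih1 had 26.6, 23.5 and 22.5 CPM in MT and 27.6, 27.5 and 26.8 CPM in WT libraries, all MT below WT, with a log2 fold change of -0.20 ± 0.07 (edgeR adjusted p = 0.0688). Tlr7 had 1.71, 1.9 and 1.88 CPM in MT and 2.25, 1.92 and 1.93 CPM in WT libraries (-0.18 ± 0.14, edgeR adjusted p = 0.353). Ddx58 was above WT in every MT library, with 14, 13.5 and 13.6 CPM in MT and 12.8, 12.7 and 11.9 CPM in WT libraries (0.11 ± 0.06, edgeR adjusted p = 0.199). The remaining 4 overlapped: Mavs at 0.03 ± 0.06, Tmem173 at -0.11 ± 0.06, Zbp1 at 0.22 ± 0.15 and Tlr3 at -0.23 ± 0.20 on the log2 scale. None of these 7 genes passed edgeR's threshold. In alternative fits some did. Ifih1 had an edgeR adjusted p of 0.0067 without MT replicate 1, where its log2 fold change was -0.29, and 0.0446 by DESeq2 and 0.000597 by voom, in a range up to 0.398 over 16 fits. Zbp1 had an adjusted p of 0.0211 by voom, and Ddx58 0.0427 and Tmem173 0.021 with the length and GC trend removed. On chromosome 2, where Asxl1 lies, Zbp1 is 19.9 Mb, Mavs 22.1 Mb and Ifih1 90.8 Mb from it, and with all libraries in the fit edgeR called none of the 3 in any MT against WT comparison.

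The change of Tlr9 differed between the cell types. The MT against WT log2 fold change was lower in LK than in old Cd11b cells by 0.98, an interaction of -0.98 ± 0.28 (edgeR adjusted p = 0.0307). Over 22 alternative fits by edgeR, DESeq2 or voom the adjusted p ran from 0.00406 to 0.363. For this interaction 1 of 9 genes was called beside 20.7% of 13996 genes. Tlr7 (-0.23 ± 0.10), Ifih1 (-0.23 ± 0.11) and Adar (-0.18 ± 0.09) had edgeR adjusted p-values of 0.133, 0.167 and 0.162. Without old Cd11b MT replicate 1, the library with the high Tlr9, the interaction was -0.71 (edgeR adjusted p = 0.0264). It was not called without old WT replicate 2 (0.0682) or 3 (0.0657), LK MT replicate 2 (0.0912) or 3 (0.091), or LK WT replicate 2 (0.0967) or 3 (0.0733), nor with replicates 2 and 3 summed (-0.98 ± 0.35, 0.363).

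Tlr9 is known from B cells and plasmacytoid dendritic cells as well as myeloid cells, so RNA of those cells is given beside it. The summed CPM of the 7 listed B cell markers varied among Cd11b libraries. The young libraries with 36.1 to 43.2 CPM of Tlr9 had B cell sums of 195 to 261 CPM, and the 2 with 27.4 and 27.7 CPM had sums of 98.9 and 119.8 CPM. Old MT replicate 1, with 25.9 CPM of Tlr9, had a B cell sum of 153 CPM, and the other 5 old libraries, with 16 to 18.1 CPM, had sums of 47.8 to 68.8 CPM. Among those 5 the library with the most Tlr9, WT replicate 1, had the lowest sum. The sums of 8 plasmacytoid dendritic cell markers were 82.4 to 170.4 CPM in young and 23.3 to 38.2 CPM in old Cd11b libraries. These sums varied in the same libraries. Old MT replicate 1 had 38.2 CPM and the other 5 old libraries 23.3 to 28.5 CPM. The 2 young libraries with the least Tlr9, MT replicate 3 and WT replicate 4, had the lowest sums of their groups, 82.4 and 105.8 CPM. This was not particular to B and plasmacytoid markers. Both libraries also had the lowest sums of T and NK cell (87.9 and 78.3 CPM), conventional dendritic cell (33.3 and 38.2 CPM) and stem and progenitor markers (162.4 and 161.6 CPM). Their megakaryocyte and platelet sums were the highest of their groups, 77.6 and 88.8 CPM. None of the 7 B cell markers was at 0 in all libraries of any group, and 1 plasmacytoid marker was at 0 in all old WT libraries. The part of these cells in the Cd11b values was not tested.

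**Figure D4:**
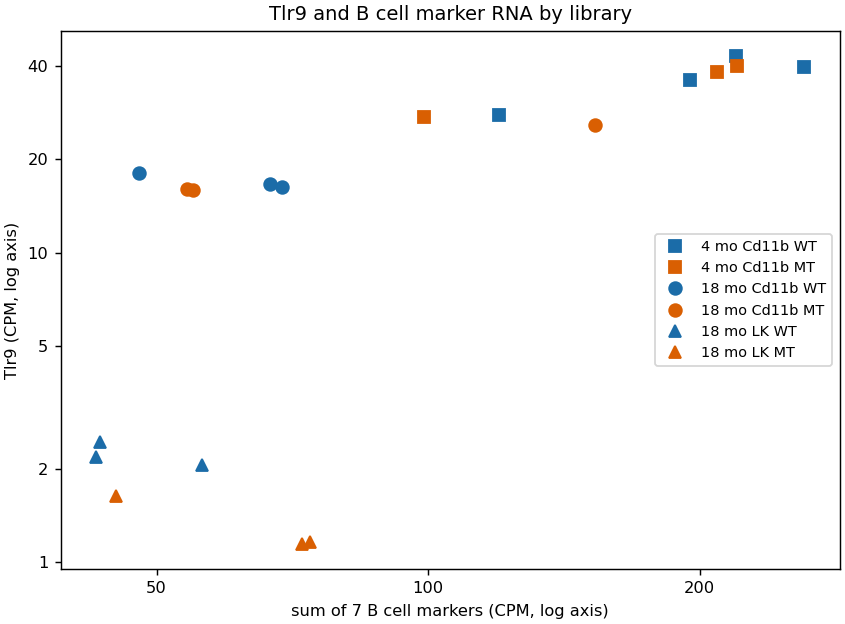
Tlr9 (CPM) against the summed CPM of 7 B cell markers in each of 19 libraries, both on log axes; squares are young Cd11b, circles old Cd11b and triangles LK libraries, WT blue and MT orange. Cd11b libraries with sums of 195 CPM or more had Tlr9 of 36.1 CPM or more, while LK MT libraries lay below LK WT libraries at sums of 45.1 to 74 CPM.

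In LK cells, where Tlr9 was lower in MT, no marker of B cells or plasmacytoid dendritic cells was called lower. The B cell sum was 45.1 to 74 CPM in MT and 42.9 to 56.1 CPM in WT libraries, and 1 of its 7 markers was called, Cd79b, which was higher in MT. The plasmacytoid sum was 70.4 to 72.5 CPM in MT and 66.5 to 70.5 CPM in WT, with 1 of 8 markers called, higher. The sum of 6 conventional dendritic cell markers was lower, 37.2 to 44.8 CPM in MT and 51.5 to 54.5 CPM in WT. Of these, Flt3 (log2 fold change -0.59 ± 0.09), which early progenitors also express, and Zbtb46 (-0.29 ± 0.09) were called lower, and the median change of the 6 was 0.18, of the opposite sign. Sums of 8 neutrophil markers were 1059 to 3674 CPM in MT and 448 to 951 CPM in WT, with 1 of 7 tested called, higher. Those of 8 T and NK cell markers were 204 to 265 and 169 to 211 CPM, with 2 called, higher. Primary granule genes were called higher in MT in 4 of 4, with sums of 13530 to 16767 CPM in MT and 11833 to 13453 CPM in WT, and immediate early genes in 7 of 8, with sums of 1951 to 2077 and 1400 to 1525 CPM. Of 7 monocyte and macrophage markers 3 were lower and 1 higher, with sums of 1200 to 1304 and 1046 to 1203 CPM. Erythroid sums were 1888 to 1986.5 CPM in MT and 2170 to 2192 CPM in WT, with 2 of 7 markers called lower. Of 5 eosinophil, basophil and mast cell markers 2 were lower, and of 8 stem and progenitor markers 1 was lower. Of 6 megakaryocyte and platelet markers 1 was higher. All these marker calls come from the LK fit that called 29.8% of all genes, and 3 genes with replicates 2 and 3 summed. The part of these shifts in the Tlr9 and Adar results was not tested.

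Beyond the 9, the pathway lists changed in both directions in LK MT cells. Of 86 genes tested 6 were higher and 18 lower, with a median log2 fold change of -0.01 beside 0.02 for all genes. These 27.9% were near the 29.8% called over all genes. All 24 calls were lost with replicates 2 and 3 summed and with the replicate number as a block (0 of 86 each), 8 of 86 were called without MT replicate 2 or without MT replicate 3, and 9 without WT replicate 2 or without WT replicate 3. Among the other sensors 6 of 19 were lower and 0 higher. Dhx9, a helicase that unwinds structured RNA, had 347 ± 3.54 CPM (SD, n = 3) in MT and 431 ± 8.69 CPM (n = 3) in WT libraries (log2 fold change -0.34 ± 0.04, edgeR adjusted p = 0.00627). Eif2ak2, the RNA-activated kinase PKR, had 36.6 against 46.9 CPM (-0.38 ± 0.07), Zc3hav1, which binds CpG-rich RNA, 68.3 against 87.5 CPM (-0.39 ± 0.06) and Oasl1 7.25 against 8.95 CPM (-0.33 ± 0.10).

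With replicates 2 and 3 summed none of the genes in the next sentences was called. Downstream of the sensors, 5 of 23 adaptor and kinase genes were lower and 2 higher in LK MT cells. Trim25, the ubiquitin ligase that acts on RIG-I, had 58.7 against 67.6 CPM, Traf6 36.4 against 44.9 CPM, Chuk 55.5 against 66.6 CPM and Map3k7 70.2 against 84.7 CPM. Of 10 transcription factors 2 were higher, among them Irf1 (0.22 ± 0.06 on the log2 scale), and 3 lower, Irf7 (-0.33 ± 0.08), Nfkb1 (-0.16 ± 0.04) and Irf8 (-0.23 ± 0.07). Ttc37 (-0.50 ± 0.06) and Skiv2l (-0.13 ± 0.03), which work in the same RNA decay complex, were lower and Rnaseh2c (0.33 ± 0.06) was higher. Of 15 interferon-induced genes 2 were called, Ifit2 lower at 19.3 against 23 CPM and Cxcl10 higher at 2.09 against 1.43 CPM. In Cd11b cells the main edgeR fits called 0 of the 86 at either age. In old cells DESeq2 called 4 and voom 16 of them, beside 514 and 4072 of all genes. There edgeR called 9 without WT replicate 1 and 1 without MT replicate 1, beside 1819 and 310 of all genes. In old cells the smallest edgeR adjusted p of the lists was 0.0917, of Isg15, at 9.23 ± 0.302 CPM (SD, n = 3) in MT and 11.4 ± 0.102 CPM (n = 3) in WT libraries.

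The genes most alike to each member over the 19 libraries, after the mean of each set was taken out, were named as a description. These libraries share sets, depth and near-equal replicates, and 10140 genes (10141 for Tlr3) were compared. Ifih1 was nearest to Phlpp1 (Pearson r = 0.92), then Eif2ak2 (0.87) and Oas3 (0.82). Ddx58 was nearest to Gpr180 (0.83), and Pde4dip (0.80) was also among its 3 nearest. Zbp1 was nearest to H2-K1 (0.92), an MHC class I gene, then Mier2 (0.91) and Ly6e (0.91), and Tmem173 to Pou2f2 (0.90), Tap1 (0.89) and Slc41a1 (0.87). Tlr9 was nearest to Man1a (0.92), Snx30 (0.89) and Arap2 (0.89), Tlr7 to Usp38 (0.79), Osbpl11 (0.78) and Tmem104 (0.77), and Tlr3 to Pkib (0.88), Smarcd1 (0.78) and Irf8 (0.78). Adar was nearest to Rnf31 (0.89), Srebf2 (0.86) and Khsrp (0.84), and Mavs to Rwdd2b (0.82), Zfp35 (0.81) and 2310008H09Rik (0.78). In LK MT cells all 3 genes alike to Tlr9 were called lower, Man1a (-0.52 ± 0.10 on the log2 scale), Snx30 (-0.50 ± 0.08) and Arap2 (-0.52 ± 0.09). So were the 3 alike to Ifih1, Eif2ak2, Oas3 (-0.44 ± 0.14) and Phlpp1 (-0.41 ± 0.12), and the 3 alike to Adar, Srebf2 (-0.31 ± 0.05), Rnf31 (-0.16 ± 0.05) and Khsrp (-0.16 ± 0.05). The likeness was measured in the same libraries, so these calls are no separate evidence, and they come from the LK fit whose calls over all genes fell to 3 with replicates 2 and 3 summed.

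Transposable element RNA, a possible source of nucleic acid for these sensors, was counted in the same libraries and is given per 1000 gene counts. In LK cells LINE counts were 8.08, 8.08 and 7.84 in MT and 7.17, 6.96 and 6.79 in WT libraries, and SINE counts were 12.8, 13.4 and 12.9 against 11.5, 12.4 and 12.4. LTR counts went the other way, 10.2, 10.2 and 10.1 in MT against 10.5, 11.7 and 11.7 in WT. MT and WT did not overlap in any of these 3 classes, with a two-sided exact permutation p of 0.1, the smallest that 3 against 3 libraries can give, and an adjusted p of 0.375 over 15 tests. DNA elements (0.823 ± 0.00623 and 0.832 ± 0.0578, SD, n = 3 each) and the total (32.2 ± 0.39 and 31.5 ± 1.13) overlapped. Per 1000 TMM-scaled gene counts the LK totals no longer overlapped, at 26.8 ± 0.955 in MT and 25 ± 0.314 in WT (exact permutation p = 0.1), and the 3 classes kept their directions.

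In Cd11b cells the totals overlapped between MT and WT, at 129.7 ± 18.3 (SD, n = 3) and 132 ± 25.9 (n = 4) in young and 34.5 ± 0.129 and 34.5 ± 1.65 (n = 3 each) in old libraries. Of the 4 classes in both Cd11b sets, old LTR counts alone were separate, with means of 11.1 in MT and 11.4 in WT and an exact permutation p of 0.1, and they overlapped per 1000 TMM-scaled gene counts (p = 0.2). The smallest exact p possible in the young set is 0.0571. Young MT replicate 3 and WT replicate 4 had the highest totals of their groups, 150.2 and 169. They also had the lowest Zbp1, Tmem173, Mavs and Tlr9 of their groups, while no other member was lowest in both. The same libraries were the young ones with Ddx3y RNA. Their sums of B cell markers (98.9 and 119.8 CPM) and plasmacytoid markers (82.4 and 105.8 CPM) were the lowest of their groups. So were their sums of T and NK cell, conventional dendritic cell, and stem and progenitor markers. These differences cannot be told apart, and the part of one in another was not tested. Between the sets, young Cd11b libraries had totals of 114 to 169 and old Cd11b libraries 33.4 to 36.4 per 1000. These totals include 7SK, and the 4 classes alone had 101 to 159 in young and 33.2 to 36.1 in old libraries. In WT Cd11b cells Ddx58, Zbp1 and Tlr7 were lower and Mavs, Tmem173 and Tlr9 higher in the young libraries. The kind of library differed in the same way, and age and library kind cannot be told apart.

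**Figure D5:**
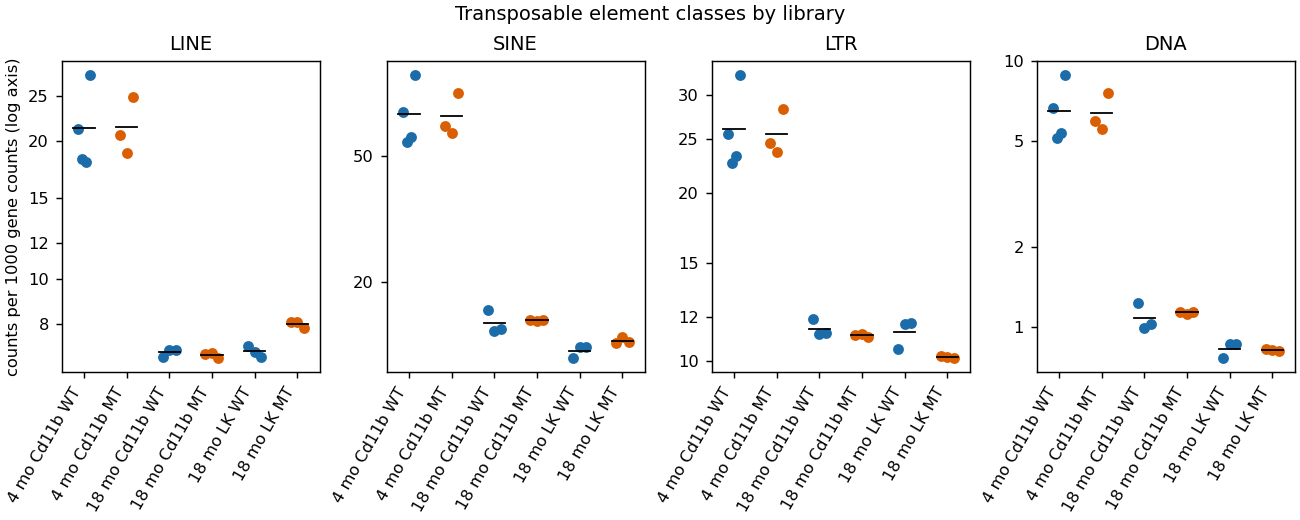
Counts of 4 transposable element classes per 1000 gene counts in each library on log axes, by group (WT blue, MT orange); black lines are means. Young Cd11b libraries stand above all 18-month libraries in every class, and LK MT libraries lie above LK WT libraries for LINE and SINE and below them for LTR.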

How the data were processed

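RNA of 19 bone marrow samples was sequenced from directional libraries, per the labels' protocols. The authors deposited counts per gene symbol and per transposable element for each sample; the submitters' processing notes name STAR, HTSeq, DESeq2 and mm10, without roles or versions, and HTSeq's strand setting was not given in the sources used here. The 9 genes, the gene lists and the tests were chosen with earlier results of these data known. Genes were tested with edgeR 4.0.16 (quasi-likelihood, robust, filterByExpr, TMM), only the groups compared entering each fit, with Benjamini-Hochberg adjustment over all genes tested and a threshold of 0.05. The test was checked on simulated counts before use. CPM use TMM factors over all 19 libraries on genes listed in all 3 sets, so a ratio of CPM can differ slightly from a fitted fold change. Exon lengths and positions are from GENCODE (GRCm38/mm10). Likeness used log2 CPM with a prior count of 2 for genes with a mean of at least 5 CPM. Named genes were the 9 members, up to 4 called genes per list with the smallest adjusted p (the gene with the smallest p where none was called), and the 3 most alike per member; Flt3, Zbtb46 and Cd79b were chosen after their values were seen. Alternatives were other factors (RLE, upper quartile), no filter, DESeq2 1.42.0, voom (limma 3.58.1), 1 fit of all libraries, length and GC offsets, the replicate block, summed replicates and leaving out each library. Counting intervals were not computed, since the fits carry counting error. Same-numbered libraries did not deviate together, so no block was used in the fits reported. Of the 94 pathway genes 86 were tested; Cgas, the interferon genes and others were not analysed here, and 1 gene that the naming rule selects is not reported here.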

Additional observations from a re-analysis of the deposited data

Results flagged for a closer look

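One result of the 9 genes differed between groups by a test of the difference itself. That was 1 of 9 genes, beside 20.7% of all 13996 genes tested. The MT against WT change of Tlr9 in LK cells and in Cd11b cells of 18 months differed by -0.98 on the log2 scale (edgeR adjusted p = 0.0307), from -0.79 in LK and 0.18 in Cd11b cells. The Cd11b value rested on old MT replicate 1. Without that library it was -0.10, and the interaction was -0.71 (edgeR adjusted p = 0.0264). Tlr9 was lower in 3 of 3 LK MT libraries than in any LK WT library. Of all genes tested in LK cells, 43.2% did not overlap between MT and WT. The interaction call was held in 14 of 22 alternative fits. It was not held with replicates 2 and 3 summed (edgeR adjusted p = 0.363), where 0 of all genes were called. The 14 groups of values with at least 4 libraries were checked for a library far from the others. None was found, where about 1 in 20 would be by chance. Only the young WT Cd11b group had 4 libraries, so no LK, old Cd11b or young MT group could be checked.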

How the results depend on the processing

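In LK cells 2 of the 9 genes were called, 4 with voom, 1 in the fit of all 19 libraries (Tlr9), 0 with replicates 2 and 3 summed, and 0 to 3 when 1 library was left out, 3 being without MT replicate 1 (Ifih1, Tlr9 and Adar). The genotype by cell type interaction was called for 1 gene, 3 with voom, 0 in the fit of all 19 libraries and with replicates 2 and 3 summed, 2 with the length and GC trend removed, and 0 to 4 when 1 library was left out, 4 being without old WT replicate 1. In the other 5 comparisons the number of members called was within 1.5 times under every alternative run. Ifih1 between the ages turned from -0.04 to 0.37 once the length and GC trends were taken out, where the median of all genes moved by 0.19 and the split of calls from 4959 higher and 5068 lower to 6297 and 3978; the cause was not tested. Upper-quartile factors moved that median by -0.11 with age and by 0.28 between LK and Cd11b cells, and changed no sign of a called member. Tlr9 in LK cells ranged from -1.02 to -0.69 (adjusted p 0.00015 to 0.229 by edgeR, DESeq2 or voom) and was called in 9 of 16 alternatives. Adar ranged from -0.23 to -0.09 (0.000142 to 0.214 by the same tools) and was called in 7 of 16.

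With the replicate number as a block, 0 of 9 genes were called in LK cells (Tlr9 adjusted p = 0.0826, Adar 0.0723) and 1 in the cell type interaction; with the block and the length and GC trend removed together the counts were 0 and 2. The block changed no other count of members called. Same-numbered libraries correlated by -0.24 to -0.04 in LK cells, -0.01 to 0.03 in old and -0.18 to 0.28 in young Cd11b cells, so the numbers gave no sign of pairing.

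Counts over all genes moved more. LK cells had 4206 called genes, 8257 with voom, 3 with replicates 2 and 3 summed or with the block, and 981 to 5569 without 1 library. Of the 86 pathway genes 24 were called there, 52 with voom, 13 in the fit of all 19 libraries, 0 summed or with the block, and 8 to 32 without 1 library. Old Cd11b cells had 45, with 514 by DESeq2, 4072 by voom, 1 summed, 0 with the block (with or without offsets), 76 with the length and GC trend removed and 0 to 1819 without 1 library. Young Cd11b cells had 0, with 19 by DESeq2, 16 with the block, 8 with a sex-linked covariate, 5 in the fit of all 19 libraries, 27 with the block and length and GC offsets, 1 without WT replicate 4 and 69 without both libraries of reversed Xist and Ddx3y. The age interaction had 3, with 63 by DESeq2, 794 by voom, 10 in the fit of all 19 libraries, 9 with the block (6 with offsets too), 20 with a sex-linked covariate and 0 to 39 without 1 library, and the cell type interaction 2904, with 6993 by voom, 1864 in the fit of all 19 libraries, 1793 with the length and GC trend removed, 1036 with the block too, 0 summed and 1129 to 4168 without 1 library. Counting only rows of the 4 transposon classes, an alternative chosen after seeing the data, left the sign of all 3 differences in the total as it was. Depth limits Tlr3, Tlr7 and Tlr9 in LK cells, at 55 to 159 counts per library.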
